A study of Drosophila melanogaster with 140 samples.

Results

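The comparison described here set glia against the remaining brain cells of aged flies in which Mettl3 was knocked down in glia. The libraries were chosen by their labels: the 3 repoGFP+ and the 3 repoGFP- libraries of Mettl3 RNAi brains at 34d, which are 6 of the 140 libraries of the series. All 6 came from male Drosophila melanogaster carrying repo-Gal4, a driver active in glia, with UAS-mcD8GFP, a membrane-bound green fluorescent protein, and a UAS hairpin against Ime4, the older name of Mettl3. Brains of several males were pooled for each replicate, dissociated with papain and liberase, and sorted by fluorescence-activated cell sorting, and polyA RNA of the sorted cells was amplified and sequenced. About 500 cells were sorted for each library. The driver, the reporter and the hairpin transgene were thus carried by every fly. The repo driver expressed both the label and the hairpin, so GFP+ and GFP- cells differed in cell type and in knockdown. Cell type and knockdown cannot be told apart in this contrast. GFP- cells were every viable cell without the label, which in a brain are mostly neurons. Besides these, 3 GFP+ and 3 GFP- libraries of 34d brains with a control hairpin against mCherry were used for reference. As many from 5d Mettl3 RNAi brains were used as well. Those of 5d brains with the control hairpin entered the scale of the 24 repo libraries and the fit of all 8 repo groups. Head libraries with the da-Gal4 driver, and ribosome-bound RNA of repo-Gal4 and elav-Gal4 flies, were used further below.

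Glia of the fly brain take up and recycle neurotransmitters, feed neurons with products of sugar breakdown, form the blood-brain barrier and engulf debris. Cortex glia wrap neuronal cell bodies, astrocyte-like glia send processes among synapses, and perineurial and subperineurial glia form the barrier towards the hemolymph. The homeobox factor repo is expressed in nearly all of these glia and in no neuron. Mettl3 is the catalytic subunit of the complex that writes N6-methyladenosine (m6A) on messenger RNA.

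The 6 libraries held between 12494699 and 15717697 reads counted on genes, and their depths overlapped between the sorts, with 12885308 to 13943183 in GFP+ and 12494699 to 15717697 in GFP-. Levels are given as CPM, each gene's count per 1e6 counted reads, scaled by trimmed mean of M-values. The labels call the replicates biological replicates. The numbers of the GFP+ and GFP- libraries were not treated as pairs.

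Glial identity was checked first. The CPM of repo (FBgn0011701, chromosome 3R, 18236192 to 18239602 on dm6) was 189, 332 and 152 in GFP+ and 3.79, 3.78 and 1.00 in GFP-, a log2 fold change of 6.28 ± 0.59 (SE, n = 3 and 3, adjusted p = 0.00105, edgeR's quasi-likelihood test with Benjamini-Hochberg adjustment, as for every adjusted p below). The groups were far apart. repo shares exon sequence with its neighbour CG7156. Reads in the shared stretch may have been left out by the counting mode, since the strand setting is not given. The pan-neuronal RNA-binding protein gene elav read 163, 173 and 135 CPM in GFP+ and 185, 249 and 198 CPM in GFP-. Its difference did not pass the test (log2 -0.42 ± 0.17, adjusted p = 0.177), although the groups did not overlap. The GFP+ libraries thus held repo at a level that the GFP- libraries lacked, and held the neuronal marker elav as well.

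Knockdown was read from Mettl3 itself (FBgn0039139, chromosome 3R, 24032157 to 24034257). The gene had 0, 5 and 47 reads in the GFP+ libraries and 64, 161 and 85 in the GFP- libraries, and 198, 66 and 108 in the GFP+ libraries of control flies of the same age. On the scale of the 24 repo libraries, Mettl3 averaged 1.24 ± 1.79 CPM (SD, n = 3) in GFP+ cells with the hairpin and 8.85 ± 3.47 CPM in control GFP+ cells, which is 13.96% (exact permutation test, 2-sided, p = 0.1, the smallest that 3 against 3 libraries allow). The GFP+ library of replicate 3 kept the most reads. Between the sorts the gene did not pass the test (log2 -2.54 ± 1.47, adjusted p = 0.357). Of the 9 tested writers and readers of m6A 0 passed it by edgeR, 2 were lower at an unadjusted p under 0.05 and DESeq2 called 1 lower, and their median log2 fold change was -0.26, against -0.02 over all genes tested.

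Markers of other cells were present in both sorts. Summed over 17 neuronal genes, the GFP+ libraries held 12426 to 15833 CPM and the GFP- libraries 18902 to 19345, so that the GFP+ mean was 75.7% of the GFP- mean. Summed over 9 general and cortex glia genes they held 6342 to 10785 CPM against 554 to 673. In bulk samples fewer cells of a type and less RNA per cell cannot be told apart. Photoreceptor genes were high in the replicate 1 library of each sort, with summed levels of 5926, 3424 and 3699 CPM in GFP+ and 11512, 4683 and 4385 in GFP-. The part of neuronal and photoreceptor RNA in the results below was not tested. Where a gene is called higher or lower in glia below, this means in the GFP+ libraries, with the neuronal RNA they held.

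**Figure D1:**
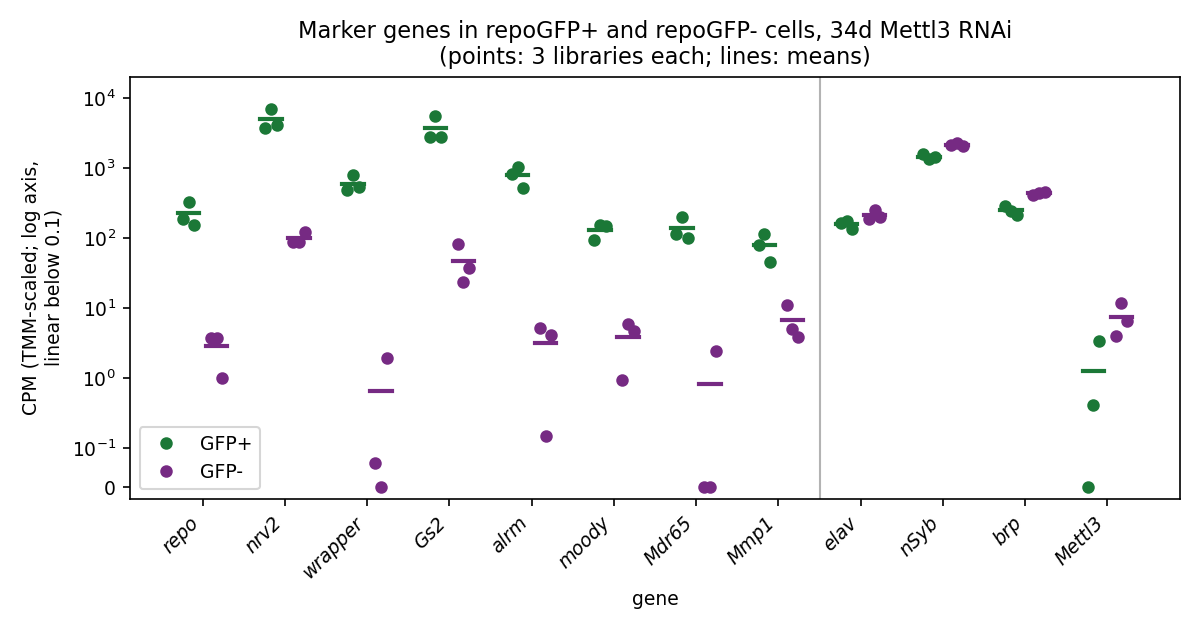
Level of 12 genes in each of the 6 libraries (y axis, CPM on a log axis that is linear below 0.1; points are libraries, lines are the means of the 3 libraries of a sort). The 8 glial and matrix genes from repo to Mmp1 sit higher in every GFP+ library than in any GFP- library, while elav, nSyb and brp lie close together in both sorts.

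Across the transcriptome, 9170 genes had enough reads to be tested. Of these, 879 were higher in GFP+ (9.59%) and 256 were lower (2.79%) at an adjusted p under 0.05. The changes were unequal in size. Among genes higher in glia the median fold was 23.6, and 509 exceeded 10-fold, whereas among genes lower in glia the median fold was 1.70 and 24 exceeded 10-fold. The GFP- counts of 134 of the genes higher in glia were at or under 3 in every library, and with these set at the bound that 3 reads per library give, the median log2 fold change of the higher genes was 4.18 in place of 4.56. All of the called genes had groups that did not overlap, which 3112 of the tested genes (33.9%) did. Leaving out GFP- replicate 1, 2 or 3 left 654, 556 or 616 genes higher and 57, 34 or 45 genes lower in glia. Without both replicate 1 libraries, a fit chosen after seeing the photoreceptor levels, 612 were higher and 87 lower. In all, 21 of the 256 were called in each of the 6 fits that left out 1 library, as were 492 of the 879 higher genes.

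**Figure D2:**
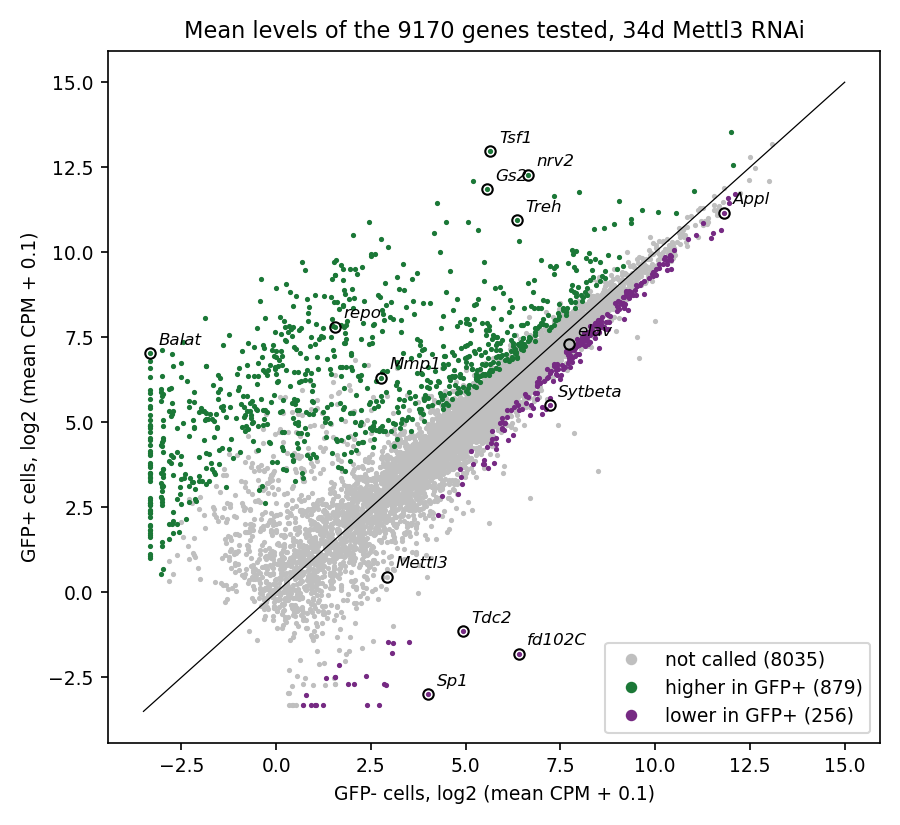
Mean level of each of the 9170 tested genes in GFP- (x axis) and GFP+ (y axis) libraries, both as log2(mean CPM + 0.1), with genes higher and lower in glia coloured. The 879 genes higher in GFP+ spread far above the diagonal, and most of the 256 lower genes lie just under it.

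Among called genes with at least 10 CPM in the higher group, the 12 with the largest change in favour of glia were nearly silent in the other cells. Balat (chromosome 2R, 12872787 to 12875012), a membrane transporter gene of glia involved in the recycling of amine transmitters, read 171, 102 and 120 CPM in GFP+ and had no read in the 3 GFP- libraries. With a floor of 3 reads per library it was at least 614-fold higher in glia (adjusted p = 0.000444). It shares exon sequence with an antisense RNA. The genes for juvenile hormone epoxide hydrolases, enzymes that degrade juvenile hormone, were in the same class. Jheh3 read 90.1, 178 and 66.0 CPM and Jheh2 read 24.9, 60.7 and 43.2 CPM in GFP+, and both were at 0 in all GFP- libraries, which makes them at least 523-fold and 201-fold higher. CG11426, which read 82.5, 114 and 91.7 CPM, was at least 451-fold higher, and the cytochrome P450 gene Cyp6t1, at 21.4, 106 and 48.2 CPM, at least 274-fold. Wsck, a receptor tyrosine kinase gene with a WSC domain, was at 56.1, 57.3 and 21.0 CPM and at least 210-fold higher. Each of these had groups that did not overlap and was called in all 6 fits that left out 1 library, as were CG33296, CG11391, CG10226, CG15890 and CG9336, at least 374, 290, 241, 173 and 155-fold higher. These bounds hold for the 6 libraries and do not cover the sampling of about 500 cells. Control GFP- libraries at 34d held reads of Wsck, Jheh2, CG11426 and Jheh3. Their log2 fold changes there were 4.59, 4.57, 5.90 and 6.21. Reads of CG9336, CG10226 and CG33296 were found there too, with log2 fold changes of 6.02, 8.44 and 8.47. Balat and Cyp6t1 had no read in control GFP- either.

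The odorant-binding protein gene a10 completed the 12 largest changes, with 239, 72.9 and 109 CPM in GFP+ and 1 read in all in GFP-. The ratio of its pooled counts was 6028 (exact 95% interval 1081 to 238129, counting error only). With 1 read in the other cells this ratio was known only loosely. Control GFP- libraries at 34d held a10 at 0.78, 3.74 and 1.58 CPM, and its log2 fold change in controls was 6.55.

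Fewer genes were markedly lower in glia. fd102C (chromosome 4, 836986 to 844529), a gene of the forkhead transcription factor family, had 1, 5 and 1 reads in GFP+ and 913, 1064 and 1517 in GFP-, that is 56.7, 78.9 and 117 CPM in GFP-. Its log2 fold change was -8.79 ± 0.65 (SE, adjusted p = 0.000446). Sp1, a zinc-finger transcription factor gene on the X chromosome (9729648 to 9756369), had 1, 0 and 0 reads in GFP+ and 234, 106 and 335 in GFP- (adjusted p = 0.00296). The ratio of its pooled counts was 618 in favour of GFP- (exact 95% interval 111 to 24460, counting error only). Both were called in all 6 fits that left out 1 library.

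Sytbeta, a synaptotagmin gene, read 52.8, 41.4 and 41.1 CPM in GFP+ and 134, 142 and 172 in GFP- (log2 -1.73 ± 0.19, adjusted p = 0.00171). Its levels were tight within each sort and the call stood in all 6 fits. Tdc2, the tyrosine decarboxylase of octopamine and tyramine neurons, read 0.23, 0.83 and 0 CPM against 9.37, 10.2 and 71.6 (log2 -6.43 ± 1.41, adjusted p = 0.0286). The GFP- level came largely from replicate 3, and the adjusted p reached 0.153 with 1 library left out. Of the remaining 8 of the 12 largest with at least 10 CPM in GFP-, CG13287 (log2 -5.39 ± 0.86) had an adjusted p of 0.0594 without GFP- replicate 3, and lncRNA:CR45223 (-1.92 ± 0.32), which shares exons with CG14322, was called in all 6 fits. The axon guidance receptor gene gogo (-1.95 ± 0.40), the mevalonate decarboxylase gene Mvd (-2.01 ± 0.47), the small heat shock protein gene Hsp23 (-1.72 ± 0.39), asRNA:CR31429 (-1.93 ± 0.34), which shares exons with neur, CG13055 and CG7191 were called in 1 to 4 of the 6 fits.

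Among the marker genes of glial classes, 8 of 9 general and cortex glia genes were higher in GFP+, 7 of 9 astrocyte-like glia genes and 9 of 15 blood-brain barrier genes, with median log2 fold changes of 5.64, 5.85 and 5.09. Over all genes tested 9.59% were higher and 2.79% lower, and each list count here and below stands beside these shares. The cortex glia adhesion molecule gene wrapper read 485, 784 and 527 CPM in GFP+ and 0.06, 0 and 1.93 in GFP- (log2 9.88 ± 1.03, adjusted p = 0.00153). Cyp4g15, a cytochrome P450 gene, read 992, 915 and 599 CPM against 0.06, 2.22 and 2.23 (log2 9.15 ± 0.85). The sodium pump subunit gene nrv2 read 3779, 7012 and 4171 CPM in GFP+ and 89.2, 87.8 and 122 in GFP- (log2 5.64 ± 0.31, adjusted p = 0.000253). These genes left no overlap between the sorts. The exception among the general genes was Nrx-IV, a septate junction protein that neurons also use, which was lower in GFP+, at 196, 188 and 182 CPM against 298, 269 and 301 (log2 -0.62 ± 0.11, adjusted p = 0.0140), and was not called without GFP- replicate 1 or without GFP- replicate 3.

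Summed over 9 astrocyte-like genes, the GFP+ libraries held 5133 to 10303 CPM and the GFP- libraries 687 to 763, and single genes peaked in different GFP+ libraries. The leucine-rich repeat gene alrm read 809, 1048 and 519 CPM in GFP+ and 5.15, 0.15 and 4.16 in GFP- (log2 7.95 ± 0.93, adjusted p = 0.00234). The GABA transporter gene Gat read 319, 646 and 266 CPM against 3.41, 3.04 and 1.39 (log2 7.28 ± 0.54, adjusted p = 0.000444), and ebony (e), whose enzyme joins beta-alanine to amines, read 1091, 630 and 468 CPM against 7.57, 2.22 and 0 (log2 7.76 ± 1.16). Each was called in all 6 fits that left out 1 library. The glutamate transporter gene Eaat1 differed less, with 531, 945 and 662 CPM against 268, 223 and 233 (log2 1.56), and Eaat2 and AANAT1 did not pass the test (log2 0.76 and 0.10, adjusted p = 0.165 and 0.792).

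For the barrier, the efflux pump gene Mdr65 read 115, 201 and 100 CPM in GFP+ and 0, 0 and 2.47 in GFP- (log2 7.45 ± 1.29, adjusted p = 0.0117). The receptor gene moody, which seals the subperineurial layer, read 92.5, 152 and 148 CPM against 0.93, 5.93 and 4.70 (log2 5.09 ± 0.66). The transporter gene CG3168 read 350, 378 and 417 CPM against 0.12, 0 and 14.4 (log2 6.32 ± 1.56, adjusted p = 0.0432), and its adjusted p rose to 0.0872 with 1 library left out. The citrate transporter gene Indy was not called (log2 5.65, adjusted p = 0.0587). The GFP+ libraries thus carried markers of cortex, astrocyte-like and barrier glia together.

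Enzymes and transporters for transmitter recycling were higher in glia for 9 of 14 genes and lower for 1, with a median log2 fold change of 1.59. Glutamine synthetase 2 (Gs2), which turns glutamate into glutamine, read 2810, 5504 and 2751 CPM in GFP+ and 81.2, 23.8 and 36.9 in GFP- (log2 6.28 ± 0.59, adjusted p = 0.00105). The aspartate aminotransferase gene Got1 read 804, 1094 and 703 CPM against 152, 124 and 107 (log2 2.76 ± 0.22, adjusted p = 0.000502). Both sets of values were separate, and all 9 higher genes of the list were called in each of the 6 fits. GABA breakdown was represented by Gabat (log2 1.61) and Ssadh (1.45). Gdh, glutamate dehydrogenase, was lower in glia (log2 -0.55 ± 0.11, adjusted p = 0.0204) and was called in 2 of the 6 fits.

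Sugar metabolism showed 12 of 22 genes higher in glia and none lower, with a median of 0.93. Trehalase (Treh), which splits the blood sugar trehalose into glucose, read 1137, 2981 and 1817 CPM in GFP+ and 82.5, 77.9 and 83.5 in GFP- (log2 4.60 ± 0.36, adjusted p = 0.000521). The trehalose transporter gene Tret1-1 read 546, 536 and 613 CPM against 53.2, 18.5 and 62.0 (log2 3.66 ± 0.44, adjusted p = 0.00254). The predicted sugar transporter gene CG4797 read 160, 103 and 266 CPM against 2.17, 2.52 and 5.86 (log2 5.65 ± 0.56). The glycolytic enzyme genes Gapdh1, Eno and Ald1 were higher by 1.72, 1.11 and 0.78. Of the 12 higher genes, 9 were called in all 6 fits, and 7 members were called higher without both replicate 1 libraries.

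Nuclear genes for subunits of oxidative phosphorylation did not share this. By edgeR only sun of 55 tested was called (log2 0.56 ± 0.14, adjusted p = 0.0456), while 9 were higher at an unadjusted p under 0.05 and 5 by DESeq2. sun was called in none of the 6 fits that left out 1 library, and the median was 0.18. Transcripts of the mitochondrial genome, a class examined after its values were seen, were higher for 16 of 22 tested, with a median of 2.14, and 12 of the 16 were called in all 6 fits. They took 1.86, 2.01 and 2.21% of the reads in GFP+ and 0.638, 0.566 and 0.669% in GFP-. The cytochrome c oxidase subunit gene mt:CoI read 2508, 3035 and 3232 CPM against 528, 511 and 554 (log2 2.46 ± 0.12, adjusted p = 0.000253). Genes for mitochondrial ribosomal proteins had a median of -0.02 over 72. For cytosolic ribosomal proteins, also examined after their values were seen, 42 of 85 were higher with a median of 0.66, for example RpS26 (1.46 ± 0.20), but 5 were called without GFP- replicate 2 and 4 in all 6 fits.

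Detoxification genes followed. Of 26 glutathione S-transferases 13 were higher and none lower, with a median of 2.51, and 11 of the 13 were called in all 6 fits. GstD1 read 556, 1021 and 530 CPM in GFP+ and 36.2, 15.1 and 20.1 in GFP- (log2 4.88 ± 0.44). GstE6 read 57.3, 109 and 84.8 CPM against 0.74, 0 and 0 (log2 8.23 ± 1.05, adjusted p = 0.00333), and GstD2, without a read in GFP-, was at least 65.5-fold higher. GstE8 had 436 reads in all in GFP+ and 1 in GFP-. These enzymes form gene clusters of similar sequence, and reads shared between members are uncertain.

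Of 17 antioxidant and metal-binding genes 7 were higher and none lower, with a median of 0.42. The iron carrier gene Tsf1, transferrin 1, read 5545, 12101 and 6567 CPM in GFP+ against 32.2, 40.8 and 77.8 in GFP- (log2 7.33 ± 0.53, adjusted p = 0.000424). The metallothionein gene MtnA read 526, 791 and 440 CPM against 2.36, 2.74 and 4.78 (log2 7.48 ± 0.40, adjusted p = 0.000253), and the extracellular superoxide dismutase gene Sod3 read 152, 354 and 164 CPM against 0, 0.07 and 3.70 (log2 7.52 ± 1.31). All 3 kept wide gaps between the sorts. Among heat shock proteins 2 of 20 were higher, Hsp70Ba (log2 4.57 ± 0.56) and Hsp70Bb (3.28 ± 0.43), which are near-identical copies and so uncertain, and Hsp23 was lower.

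Lipid storage and transport genes were higher for 10 of 22 with none lower by edgeR, and their median was 1.06. The count fell to 6 without GFP- replicate 3, and 6 of the 10 were called in all 6 fits. The perilipin gene Lsd-2, whose protein coats lipid droplets, read 192, 341 and 125 CPM in GFP+ and 2.86, 0.15 and 1.39 in GFP- (log2 7.18 ± 0.86, adjusted p = 0.00255). The lipase gene Lip4 had 423 reads in all in GFP+ and 2 in GFP- (adjusted p = 0.00433). Jabba, which holds histones on lipid droplets, was higher by 5.55 ± 1.12 and was called in 3 of the 6 fits. The carnitine palmitoyltransferase gene whd, needed for fatty acid oxidation, was higher by 3.09 ± 0.17 (adjusted p = 0.000253). Lipophorin (apolpp), a lipid carrier also made by fat body, read 180, 422 and 166 CPM against 8.07, 6.53 and 6.55 (log2 5.18 ± 0.44). It was the only called fat body marker. Of the fat body list 10 of 12 genes were too low to test, the larval serum protein gene Lsp1alpha had 0, 0 and 2 reads in GFP+ and 0, 2 and 0 in GFP-, and the summed list ranged over 164 to 436 CPM in GFP+ and 10.4 to 15.2 in GFP-.

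Basement membrane and matrix genes were higher for 7 of 11. The type IV collagen gene Col4a1 had 1419 reads in all in GFP+ and 2 in GFP- (adjusted p = 0.00669), and vkg, its partner chain, read 41.4, 172 and 54.6 CPM against 2.42, 0.74 and 0.69 (log2 6.08 ± 0.83). The collagen-binding protein gene SPARC read 374, 732 and 537 CPM against 3.35, 2.08 and 16.4 (log2 6.24 ± 0.85). These are also hemocyte products. The hemocyte-defining genes Hml and NimC1 had 4, 7 and 4 and 0, 0 and 3 reads in GFP+, against 5, 5 and 2 and 2, 0 and 0 in GFP-, 0 of the 4 tested hemocyte markers were called by edgeR (1 higher and 1 lower at an unadjusted p under 0.05, and by DESeq2), and the summed list of 12 was 311 to 334 CPM in GFP+ and 315 to 382 in GFP-.

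The study names Mmp1, puc, Ets21C and dl among genes that go up with age and brain injury. It also reports higher expression of these genes in glia than in neurons. Their levels were read here in libraries of flies with the Mettl3 hairpin. The study does not say that its statement rests on such flies. The matrix metalloprotease gene Mmp1 read 79.2, 113 and 45.7 CPM in GFP+ and 11.1, 5.04 and 3.93 in GFP- (log2 3.56 ± 0.53, adjusted p = 0.00622), without overlap and in all 6 fits. The JNK phosphatase gene puc read 74.7, 103 and 54.0 CPM against 74.4, 63.9 and 58.5 (log2 0.24 ± 0.26, adjusted p = 0.675). The groups of puc overlapped. The ETS factor gene Ets21C read 6.86, 0.25 and 0.07 CPM against 10.0, 7.19 and 0 (log2 -1.26 ± 1.96, adjusted p = 0.776), and dl, the NF-kappaB factor dorsal, read 12.2, 33.1 and 13.4 CPM against 28.8, 3.04 and 10.7 (log2 0.46 ± 0.80, adjusted p = 0.800). Both overlapped as well. In control brains at 34d the log2 fold changes were 4.71 for Mmp1, 0.71 for puc and 2.46 for dl, and Ets21C was not tested there. Of the injury and JNK list, which holds these genes, 1 was called higher and 0 lower in those controls. In 5d Mettl3 RNAi brains the log2 fold changes were 3.06 for Mmp1, 0.38 for puc, 0.44 for dl and 6.00 for Ets21C. Ets21C had 15, 40 and 19 reads in GFP+ and 0, 0 and 1 in GFP- at 5d.

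Of 16 injury and JNK genes 2 were higher, Mmp1 and the TNF gene egr (log2 5.74 ± 1.38, adjusted p = 0.0392, called in 1 of the 6 fits), and bsk, the JNK gene itself, was lower (-0.48 ± 0.12, adjusted p = 0.0431, 1 fit). Of 12 engulfment genes 5 were higher, but 2 without GFP- replicate 1, 2 or 3 and 3 without GFP+ replicate 2 or 3, and only ced-6 and Mmp1 were called in all 6 fits. The adaptor gene ced-6, which acts downstream of the engulfment receptor, read 275, 518 and 316 CPM in GFP+ and 5.34, 0.89 and 2.08 in GFP- (log2 7.03 ± 0.68, adjusted p = 0.00112). The receptor gene drpr itself read 412, 372 and 337 CPM against 179, 239 and 243 (log2 0.76 ± 0.16, adjusted p = 0.0236), and the adjusted p reached 0.073 with 1 library left out. Of 21 Toll and Imd genes 4 were higher, with 1 to 3 in the fits that left out 1 library and 1 without GFP+ replicate 2, GFP+ replicate 3 or GFP- replicate 2. The kinase gene IKKbeta had 334 reads in all in GFP+ and 1 in GFP- and was called in all 6 fits, while PGRP-LB and Myd88 were called in 1 each. Of the 3 antimicrobial peptide genes with enough reads 0 were called by edgeR or DESeq2, and 0 had an unadjusted p under 0.05.

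Of 21 ion channel genes 3 were higher in glia and 0 lower by edgeR, beside 9.59% and 2.79% of all genes tested. Their median was -0.23, while 5 were lower at an unadjusted p under 0.05 and 4 by DESeq2. The inward rectifier potassium channel genes Irk2 and Irk3 read 237, 668 and 329 CPM against 11.7, 0.82 and 7.17 (log2 5.95 ± 0.91), and 222, 313 and 155 CPM against 6.08, 1.78 and 1.62 (log2 6.16 ± 0.63). The chloride channel gene ClC-a was higher by 5.60 ± 0.76, and all 3 were called in every fit that left out 1 library. Of 11 clock genes 3 were higher, timeless (tim) by 3.07 ± 0.50 at 118, 304 and 258 CPM against 15.2, 23.6 and 42.5, the photoreceptor protein gene cryptochrome (cry) by 2.75 ± 0.46, and Pdp1 by 0.60 ± 0.13. Of 11 muscle genes 2 were higher. The actin gene Act79B read 489, 585 and 239 CPM against 4.10, 1.71 and 4.47 (log2 6.99 ± 0.53) and fln 65.7, 173 and 84.9 against 0.93, 0 and 0.92, while the muscle myosin gene Mhc had 7, 13 and 6 reads against 3, 3 and 3. The summed muscle list was 426 to 906 CPM in GFP+ and 97.1 to 119 in GFP-.

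**Figure D3:**
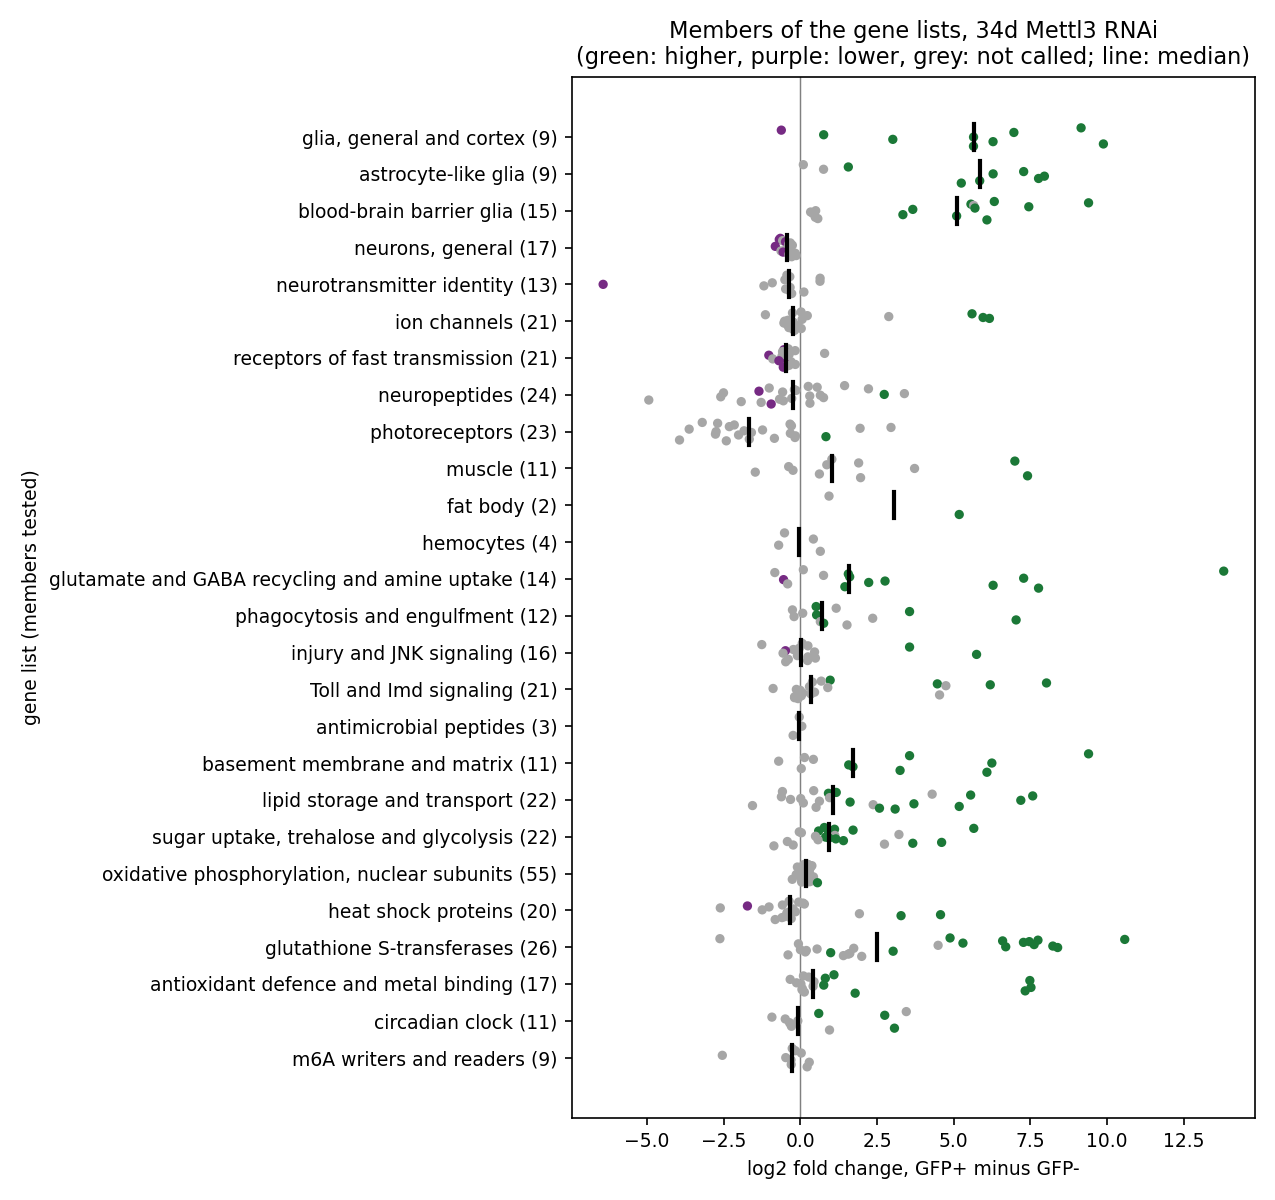
Log2 fold change of GFP+ over GFP- (x axis) for the tested members of each of 26 gene lists (points are genes, vertical lines are list medians). The 3 glial marker lists lie to the right at medians of 5.09 to 5.85, and the neuronal, receptor and neuropeptide lists lie just left of 0.

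Neuronal genes were lower in the GFP+ libraries than in the GFP- libraries by small steps. These steps compare mixed libraries and are no levels of the genes in glia. Of 17 general neuronal genes 5 were lower and none higher, with a median of -0.42. The amyloid precursor-like gene Appl read 2545, 2227 and 2126 CPM in GFP+ and 3595, 3854 and 3380 in GFP- (log2 -0.65 ± 0.10, adjusted p = 0.00792). The active zone protein gene brp read 288, 244 and 212 CPM against 410, 441 and 459 (log2 -0.82 ± 0.14, adjusted p = 0.0117). The synaptic vesicle protein gene nSyb, at log2 -0.56 ± 0.10, and Rab3, at -0.69 ± 0.17, were also lower. The groups were separate for each, and Appl alone of the list was called in all 6 fits. Without GFP- replicate 1, 2 or 3 the list had 3, 1 or 2 lower genes. Of 13 transmitter identity genes only Tdc2 was called by edgeR, while 4 were lower at an unadjusted p under 0.05 and 2 by DESeq2, and the acetylcholine and GABA enzymes ChAT and Gad1 did not pass (log2 -0.44 and -0.50, adjusted p = 0.0668 and 0.390).

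Receptors of fast transmission were lower for 5 of 21, with a median of -0.46, but for 1 without GFP- replicate 1, 2 or 3 and for 3 without GFP+ replicate 2. The NMDA receptor subunit gene Nmdar1 read 83.2, 86.5 and 80.8 CPM in GFP+ and 147, 183 and 180 in GFP- (log2 -1.03 ± 0.15, adjusted p = 0.00595) and was called in all 6 fits. The nicotinic subunits nAChRalpha2 (-0.70 ± 0.12) and nAChRbeta2 (-0.56 ± 0.12) were called in 3 and 1. Of 24 neuropeptide genes 2 were lower and 1 higher. sNPF, a feeding and sleep peptide gene, read 1935, 1342 and 1264 CPM against 2746, 2908 and 3118 (log2 -0.95 ± 0.17, adjusted p = 0.0138). Dh44, a diuretic hormone gene, read 89.5, 197 and 146 CPM against 421, 311 and 367 (log2 -1.35 ± 0.29, adjusted p = 0.0253). ITP, the ion transport peptide gene, was higher in glia, at 40.3, 29.8 and 20.9 CPM against 1.80, 3.63 and 8.25 (log2 2.73 ± 0.61, adjusted p = 0.0312). The calls of sNPF, Dh44 and ITP stood in 4, 2 and 2 of the 6 fits. The 23 photoreceptor genes had a median of -1.66, and their summed level in GFP+ was 63.4% of that in GFP-. By edgeR 0 of them were lower, with 1 lower at an unadjusted p under 0.05 and 1 by DESeq2, and rdgA was higher (log2 0.83 ± 0.20, called in 1 of the 6 fits).

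The same contrast in the 2 reference conditions used other libraries. Control brains at 34d gave 493 genes higher in GFP+ (5.46%) and 111 lower (1.23%) of 9027, 6.69% together, and 5d Mettl3 RNAi brains 1436 (15.9%) and 637 (7.07%) of 9014. Of the 8763 genes tested in both 34d conditions, 452 were called in the same direction in both and 0 in opposite directions, which is 42.6% of the 1061 called with Mettl3 RNAi and 76.4% of the 592 called in controls. With 5d Mettl3 RNAi 924 of 8764 were called in the same direction and 0 in opposite ones, which is 83.8% of 1102 and 46.5% of 1988. The neuronal list in GFP+ stood at 75.7% of GFP- with Mettl3 RNAi at 34d, 91.4% in controls at 34d and 71.5% with Mettl3 RNAi at 5d. The part of neuronal RNA in these counts was not tested. Of the general neuronal genes, 5 were called lower with Mettl3 RNAi at 34d, 0 in controls at 34d and 11 with Mettl3 RNAi at 5d.

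Whether the glia contrast differed between genotypes at 34d was tested as an interaction over 12 libraries. By edgeR's quasi-likelihood test 0 of 9864 genes were called (0.00%), with 377 at an unadjusted p under 0.05 in the higher direction and 290 in the lower, and DESeq2 called 38 and 33. CG11391, Cyp6t1, Balat and CG15890 had no read in either GFP- group. Their SE ran from 1359 to 13275, so the test could not decide for them. CG11391 read 64.4, 108 and 20.9 CPM in GFP+ with Mettl3 RNAi and 0.13, 0.09 and 3.16 in control GFP+. The gene with the smallest adjusted p, 0.0538, was fd102C (log2 -8.76 ± 1.19), named after its values were seen. On the scale of the 24 repo libraries it read 0.07, 0.41 and 0.07 CPM in GFP+ and 54.0, 75.2 and 112 in GFP- with Mettl3 RNAi, and 22.6, 232 and 105 CPM in GFP+ and 150, 136 and 73.1 in GFP- of control brains. In 5d Mettl3 RNAi brains it read 0, 48.6 and 61.3 CPM in GFP+ and 55.4, 99.9 and 174 in GFP-. The glial libraries at 34d were thus below every control library, and 1 glial library at 5d was at 0 as well. For repo the interaction was 0.65 (adjusted p = 0.958), for nrv2 1.10 (adjusted p = 0.661) and for Treh 0.82 (adjusted p = 0.789).

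The change of the contrast with age within Mettl3 RNAi was tested in the same way over 12 libraries. By edgeR's quasi-likelihood test 0 of 9835 genes were called higher (0.00%) and 1 lower (0.0102%), with 272 and 431 at an unadjusted p under 0.05 and 20 and 63 by DESeq2. CG10226, without a read in either GFP- group, had an SE of 384, so the test could not decide for it. The called gene, CG11275 (FBgn0034706, chromosome 2R, 22179695 to 22182642), read 44.8, 112 and 61.8 CPM in GFP+ and 4.54, 3.48 and 4.64 in GFP- at 34d, and 97.4, 98.2 and 97.0 against 0, 0 and 0 at 5d. The difference lay in the GFP- libraries, where no read was found at 5d. Its fitted interaction of -9.20 ± 0.85 (adjusted p = 0.0129) depends on the prior count and is no measure of size. nrv2 (-1.13, adjusted p = 0.408), Tsf1 (-1.47, adjusted p = 0.558) and repo (-0.36, adjusted p = 0.977) were not called.

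**Figure D4:**
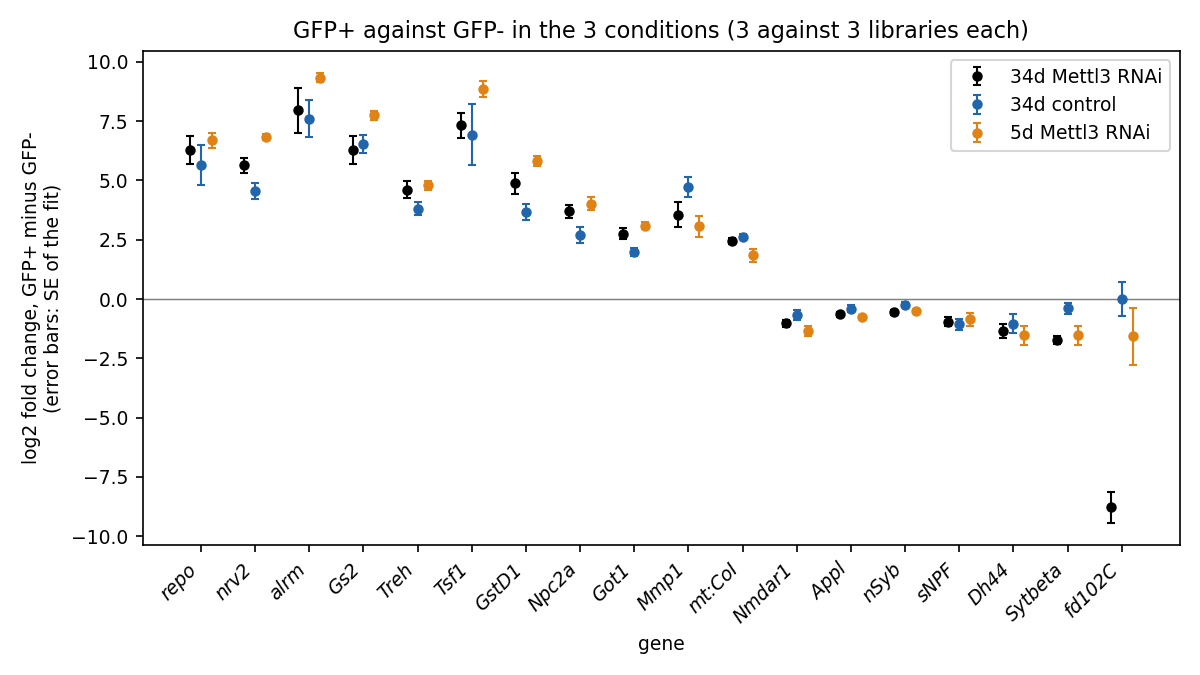
Log2 fold change of GFP+ over GFP- for 18 genes in 34d Mettl3 RNAi, 34d control and 5d Mettl3 RNAi brains (y axis, points with SE of the fit, 3 against 3 libraries each). The glial genes plotted lie above 0 and the neuronal genes plotted below 0 in all 3 conditions. fd102C lies at -8.79 in 34d Mettl3 RNAi and near 0 in 34d controls.

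Methylated transcripts were read from the m6A immunoprecipitations of fly heads, which were other libraries of the series. In these heads da-Gal4, not repo-Gal4, drove the hairpin against Mettl3 or mCherry. There, 2249 transcripts lost enrichment over input with Mettl3 RNAi at 5d (1490) or 34d (2106), at an adjusted p under 0.05. Of the 1984 of them tested in the sorted cells, 239 (12.05%) were higher in GFP+ and 104 (5.24%) lower, with a median log2 fold change of -0.10. Among the 6752 remaining genes tested in heads, 626 (9.27%) were higher and 146 (2.16%) lower. Without GFP- replicate 1, 2 or 3 the number of m6A transcripts lower in glia was 24, 16 or 20. Among all genes tested the lower calls in these fits were 57, 34 or 45. In the control contrast 134 and 36 of 1961 were called higher and lower, beside 5.46% and 1.23% of all genes tested there. In 5d Mettl3 RNAi 368 and 286 of 1974 were called, beside 15.9% and 7.07% of all genes tested there. Of the genes tested in both, 1984 were m6A transcripts and 6752 were not, so the names below are no evidence of enrichment. Named genes among the m6A transcripts were wrapper, alrm, e, CG3168, Irk2, ClC-a, ced-6, Mmp1, ITP and rdgA on the glial side. On that side egr, PGRP-LB, Myd88, Lsd-2, CG4797, Treh, Hsp70Ba, Hsp70Bb and Pdp1 were among them as well. On the side of the other cells they were Sp1, Sytbeta, sNPF, Rab3 and nAChRalpha2. The uncalled puc and Ets21C, and CG11275 of the age interaction, were also m6A transcripts.

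Ribosome-bound RNA offered a readout from other flies and other libraries, and was added after seeing the sorted cells. In translating ribosome affinity purification (TRAP), FLAG-tagged RPL3 was driven by repo-Gal4 or elav-Gal4 in 34d Mettl3 RNAi brains, and the RNA bound to it was sequenced in 4 libraries of each driver, with 5210829 to 8900696 counted reads. The drivers also set where Mettl3 was knocked down, so the cell type and the site of the knockdown cannot be told apart in this contrast. The purified RNA was not set against its input RNA, so RNA carried along without the tag was not measured. The neuronal marker elav averaged 147 CPM with the repo driver and 117 with the elav driver. Of 9358 genes, 1025 (11.0%) were higher with the repo driver and 703 (7.51%) lower. Of the 879 genes higher in sorted glia 855 were tested, and 491 (57.4%) were higher and 9 (1.05%) lower with the repo driver, with a median log2 fold change of 1.15. Of the 256 genes lower in sorted glia 242 were tested, and 42 (17.4%) were lower and 6 (2.48%) higher, with a median of -0.30. The 42 became 26 without elav-driver replicate 2 and 27 without elav-driver replicate 3. The genes not called in the sorted cells had a median of -0.14, with 6.28% higher and 8.63% lower.

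Of the genes named by rule as higher in sorted glia, 57 were tested in the ribosome-bound RNA, and 40 were higher with the repo driver, 16 were not called and 1 was lower. repo averaged 200.0 CPM with the repo driver and 33.6 with the elav driver (log2 2.58 ± 0.27, adjusted p = 2.79e-05). CG11426 was higher by 3.32, Mdr65 by 3.23, e by 2.83, Balat by 2.73, Irk2 by 2.46, Mmp1 by 2.43, Treh by 2.42, SPARC by 2.28 and Tsf1 by 1.39. The 16 that were not called included CG33296 (log2 -0.18) and Cyp6t1 (0.26) of the 12 largest in sorted glia, MtnA (0.57), apolpp (0.26), Lip4 (0.44), IKKbeta (1.18), tim (0.07), PGRP-LB (0.10) and Hsp70Ba (-0.54). Among the named genes lower in sorted glia, 2 of 21 tested were lower with the repo driver and 0 higher, and sNPF (-0.60 ± 0.26, adjusted p = 0.133) and fd102C (-1.31 ± 1.08, adjusted p = 0.444) were not called, nor was elav (0.32 ± 0.22, adjusted p = 0.348). wrapper went the other way, at 11.6 CPM with the repo driver and 41.6 with the elav driver (log2 -1.84 ± 0.34, adjusted p = 0.00204), although it was among the genes with the widest gap in the sorted cells.

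**Figure D5:**
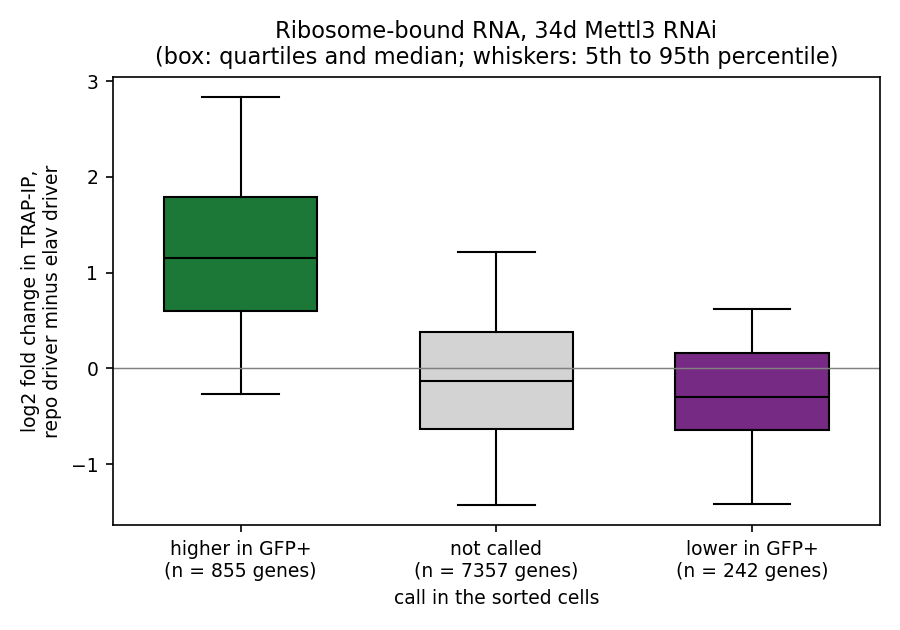
Log2 fold change of ribosome-bound RNA, repo driver over elav driver (y axis), for genes higher (855), not called (7357) and lower (242) in sorted GFP+ cells; boxes are quartiles and whiskers the 5th to 95th percentiles. The median is 1.15 for genes higher in sorted glia, -0.14 for genes not called and -0.30 for genes lower in sorted glia.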

How the data were processed

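Deposited values were whole-number read counts per gene. Per the study's methods and the submitters' processing notes, the authors trimmed reads with Trim Galore, aligned them with STAR 2.7.3a to dm6, dropped reads that were unmapped or improperly paired, and counted the rest on exons of FlyBase genes in union mode, in which a read on exons of more than 1 gene is not counted. The strand setting and the treatment of multi-mapped reads are not given in the sources used here. Of 17562 genes, 17495 matched the annotation used for coordinates (BDGP6.54).

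The GFP+ and GFP- libraries were compared with edgeR 4.0.16 (R 4.3.3) on the deposited counts: TMM scaling, the filterByExpr filter on low counts, a robust quasi-likelihood fit of the 6 libraries and Benjamini-Hochberg adjustment over all genes tested, with a threshold of 0.05. Interactions were fitted on 12 libraries, and DESeq2 1.42.0 was an alternative. SE was taken from the fit. The statistical scripts were checked on simulated counts. Depth was 12494699 to 15717697 counts per library, and intervals on counts cover counting error only.

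The 26 gene lists and the libraries compared were chosen with earlier results of these data known. Named genes were the 12 with the largest change in each direction among called genes with at least 10 CPM in the higher group and no overlap, up to 3 members of each list in each direction, up to 5 genes of each interaction, and repo, elav, Mettl3, Mmp1, puc, Ets21C and dl. Further genes (among them nrv2, Gs2, moody, Gat, Got1, Tsf1, GstD1, drpr, nSyb, whd, tested genes that were not called and marker genes given as counts) were named with their values seen, as were the mitochondrial and ribosomal classes. The ribosome-bound RNA and the fit without both replicate 1 libraries were added after seeing the data. Columns of samples outside the series numbered 0.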

Additional observations from a re-analysis of the deposited data

Results flagged for a closer look

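The glia contrast of Mettl3 RNAi brains differed between 34d and 5d for 1 gene in the lower direction, by the test of the interaction over 12 libraries (edgeR's quasi-likelihood test). The gene was CG11275, with a fitted log2 interaction of -9.20. Its GFP+ libraries read 44.8 to 112 CPM at 34d and 97.0 to 98.2 CPM at 5d, and its GFP- libraries 3.48 to 4.64 CPM at 34d and 0 in all 3 at 5d, so the fitted value depends on the prior count. The call was lost under a replicate block and when Mettl3 RNAi 5D GFP+ replicate 2, 5D GFP+ replicate 3 or 34D GFP- replicate 3 was left out.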

How the results depend on the processing

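The count of genes higher in glia (879) lay between 556 and 826 with 1 library left out, and that of lower genes (256) between 34 and 244. The lower count was 496 with DESeq2, 147 with no filter on low counts, 61 with a replicate block, 387 with all 8 repo groups in 1 fit, 503 with 1 RUVr factor and 87 without both replicate 1 libraries (chosen after seeing the data), beside higher counts of 1221, 843, 593, 1169, 914 and 612. Higher genes thus made up 77.4% of the calls, 64.5% with RUVr, 90.7% with the block and 94.2% without GFP- replicate 2. RLE scaling gave 885 and 217, and moved the median of all genes from -0.02 to 0.01. The genotype interaction gave 38 and 33 genes with DESeq2 and 5 higher with no filter, and 0 to 1 and 0 to 2 with 1 library left out. The age interaction gave 20 and 63 with DESeq2, 2 lower with no filter, 0 with the replicate block, and 0 to 0 and 0 to 13 with 1 library left out. In lists with no member lower in glia by edgeR, DESeq2 called 4 ion channel genes, 1 matrix gene, 1 lipid gene, 1 photoreceptor gene and 1 hemocyte gene lower, and 0 of the sugar, glutathione S-transferase and antioxidant genes. For m6A transcripts the left-out fits gave 154 to 222 higher and 16 to 101 lower. The log2 fold change of puc ran from -0.017 (without GFP+ replicate 2) to 0.47 and that of dl from -0.13 (without GFP+ replicate 2) over -0.02 (without GFP- replicate 2) to 1.54, and neither was called in the full fit. With 1 library left out, 416 to 494 genes were higher and 26 to 46 lower in both the sorted cells and the ribosome-bound RNA. The labels do not say whether same-numbered libraries of the sorts shared brains, and 3 correlations cannot decide it. Same-numbered libraries correlated at 0.03, -0.05 and 0.05 over 8103 genes, and 1 of 3 correlated best with its own number. Photoreceptor sums were highest in replicate 1 of both sorts, at 5926 CPM in GFP+ and 11512 in GFP-. Depth limited genes at 0 reads, for which folds are bounds. The list of Mettl3-dependent transcripts that accompanies the paper was not run as an alternative.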
